A study of Drosophila melanogaster with 8 samples.

Results

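The euchromatic arm of chromosome 3L was taken as the stretch from 1 Mb below the telomere end to 5 Mb above the centromere end of the 3L sequence, 22.1 Mb in all, and its members were the H3K9me2 regions with a midpoint inside these limits. It held 2494 of the 31871 regions of the series and 36.9% of the 6759 regions of 3L. The study used ChIP-seq against histone H3 dimethylated at lysine 9 (H3K9me2) on Day 50 male heads. The NelfA*/+ flies were heterozygous for the KG09483 P-element insertion in Nelf-A and had been backcrossed to w1118, and the control siblings were +/+. There were 2 H3K9me2 ChIP libraries and 2 input libraries for each genotype, each from pooled heads, and the allele was a single insertion present in every cell of the fly. The authors condensed the libraries into 3 lists: regions with more H3K9me2 in NelfA*/+ flies, regions with more in control siblings (control-higher), and regions common to the genotypes. The lists carry positions and a score for each region and no value for a single library, so no spread between replicates could be given, no difference between the genotypes was tested, and the depth is unknown. The counts are therefore a description of the authors' calls. In bulk heads, more cells that carry the mark and more mark in each cell cannot be told apart.

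H3K9me2 is a mark of silent chromatin. It is deposited by SU(VAR)3-9 family methyltransferases and G9a and bound by HP1, and it is densest in the repeat-rich sequence around centromeres, while the arms carry it at scattered sites. NELF keeps RNA polymerase II paused just downstream of promoters, and NELF-A is among its subunits. Among the genes of the 3L arm are small heat-shock protein genes, which are classical genes with paused polymerase.

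The reference sequence under some of the highest-scoring regions is given below. These regions were picked by score and do not represent their lists. Those higher in NelfA*/+ flies include copies of 2 retrotransposons and a repeat of 23.9% GC. In that whole list 6.66% of regions overlapped an annotated transposable element, and the median GC content was 53.8%. The sequences are the plus strand of the RefSeq reference (Release 6, the assembly of BDGP6), 5′ to 3′, with positions counted from 1. From the 10 highest scores of each differential list, the first 5 higher in NelfA*/+ flies and the first 3 higher in control siblings that were at most 300 bp long and held no UTR base are given. Capitals mark the triplet repeat CAGCAG as well as the repeat unit GTGGTG and the repeat unit GATAGATA on either strand.
jim intron, opus copy, chr3L:22810242-22810446: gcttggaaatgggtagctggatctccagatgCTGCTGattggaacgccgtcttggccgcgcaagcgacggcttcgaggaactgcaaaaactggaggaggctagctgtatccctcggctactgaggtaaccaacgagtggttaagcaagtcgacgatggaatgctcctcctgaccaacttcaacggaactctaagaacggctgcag
Grd and CG32189, chr3L:17834916-17835136: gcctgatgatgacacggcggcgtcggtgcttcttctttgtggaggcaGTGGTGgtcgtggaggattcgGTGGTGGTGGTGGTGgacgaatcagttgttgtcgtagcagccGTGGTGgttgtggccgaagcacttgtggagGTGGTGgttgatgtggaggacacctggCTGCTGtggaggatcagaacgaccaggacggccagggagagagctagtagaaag
near lncRNA:CR43912, chr3L:13292113-13292338: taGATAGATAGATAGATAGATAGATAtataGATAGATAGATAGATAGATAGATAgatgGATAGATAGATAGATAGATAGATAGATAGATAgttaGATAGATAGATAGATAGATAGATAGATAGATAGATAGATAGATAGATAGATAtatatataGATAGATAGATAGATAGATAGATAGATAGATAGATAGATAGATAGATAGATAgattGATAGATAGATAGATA
Eip75B, chr3L:18058801-18059029: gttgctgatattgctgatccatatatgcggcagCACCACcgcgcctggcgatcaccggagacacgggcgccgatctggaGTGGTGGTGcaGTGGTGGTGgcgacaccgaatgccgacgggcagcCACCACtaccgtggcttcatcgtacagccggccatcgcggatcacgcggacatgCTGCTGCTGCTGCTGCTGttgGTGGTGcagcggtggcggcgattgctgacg
ome intron, Doc element copy, chr3L:14727533-14727825: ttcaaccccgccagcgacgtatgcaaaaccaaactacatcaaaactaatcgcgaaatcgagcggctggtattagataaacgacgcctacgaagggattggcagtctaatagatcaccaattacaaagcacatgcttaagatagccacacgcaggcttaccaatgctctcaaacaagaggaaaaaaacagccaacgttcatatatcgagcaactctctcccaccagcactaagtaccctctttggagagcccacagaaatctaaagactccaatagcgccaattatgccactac
intergenic near eIF4E3, chr3L:8226260-8226464: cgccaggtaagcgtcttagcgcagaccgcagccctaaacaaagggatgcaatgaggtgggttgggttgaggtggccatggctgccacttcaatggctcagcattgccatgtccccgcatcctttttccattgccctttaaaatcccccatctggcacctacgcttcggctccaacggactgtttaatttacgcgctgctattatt
CG13449, chr3L:15612334-15612534: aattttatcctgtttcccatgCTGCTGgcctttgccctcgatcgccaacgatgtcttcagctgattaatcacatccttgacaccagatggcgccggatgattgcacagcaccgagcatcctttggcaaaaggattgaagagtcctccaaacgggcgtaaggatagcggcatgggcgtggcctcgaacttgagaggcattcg
lncRNA:CR43270 exon, chr3L:22666647-22666917: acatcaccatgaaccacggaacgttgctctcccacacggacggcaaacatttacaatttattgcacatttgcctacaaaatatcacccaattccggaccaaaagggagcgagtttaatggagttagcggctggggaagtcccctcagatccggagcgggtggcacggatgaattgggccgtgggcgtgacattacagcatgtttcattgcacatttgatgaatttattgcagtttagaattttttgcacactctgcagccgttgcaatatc
The highest score on the arm, 57.9, belonged to 205 bp of an opus retrotransposon in an intron of jim, a zinc finger gene. The second, 27.7, covered 221 bp with 58.8% GC, and 17.6% of its bases lay in the marked motifs. It lay wholly inside CG32189, a gene of 0.430 kb within the span of the longer gene Grd. Grd encodes a subunit related to GABA and glycine receptors. The third, 18.5, was a tetranucleotide repeat in which GATA occurred 50 times in 226 bp, 88.5% of the bases were marked and the GC content was 23.9%. It lay 0.456 kb from lncRNA:CR43912 and 60 kb from the nearest common region. The region at Eip75B, an ecdysone-induced nuclear receptor gene, scored 8.43, had 64.2% GC and 23.6% of its bases in the marked motifs. The region in ome, 293 bp of a Doc retrotransposon with a score of 6.90, held none of the 3 motifs. Among the regions higher in control siblings, the marked motifs covered 2.99% of the bases at CG13449 and none at the other sites. GTGGTG and GATAGATA were added after these sequences were seen, so the marked shares are no comparison of the lists. GAGAG, found in 34.1% of control-higher and 23.5% of NelfA*/+ windows of 200 bp, was not marked. The control-higher sequences scored 5.13, 5.02 and 4.75.

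H3K9me2 calls on the arm fell mostly on the NelfA*/+ side. There were 886 regions higher in NelfA*/+ flies, 35.5% of the regions of the arm, where such calls made up 29.4% of all regions of the series. There were 85 regions higher in control siblings, 3.41% of the arm's regions, where the series had 5.64%. The other 1523 regions were common. Of the 971 differential regions, 91.2% were thus higher in NelfA*/+ flies, a ratio of 10.4 to 1. The regions higher in NelfA*/+ flies covered 305 kb or 1.38% of the arm, control-higher regions 22.6 kb or 0.102%, and common regions 666 kb or 3.01%. By covered bases the NelfA*/+ share of the differential sequence was 93.1%.

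The regions were short. The median length was 292 bp in regions higher in NelfA*/+ flies, 246 bp in control-higher regions and 343 bp in common regions, from a minimum of 200 bp set by the caller to at most 1336, 860 and 5041 bp. The score has no stated name or scale, so its values describe the calls and are no measure of how much H3K9me2 differed. Its median was 2.39 (1.11 to 57.9) in regions higher in NelfA*/+ flies and 2.0 (1.15 to 5.13) in those higher in control siblings. A score of at least 3 was reached by 264 (29.8%) of the former and 13 (15.3%) of the latter. In common regions the score ran from 0.0236 to 0.790 with a median of 0.273. Regions of the NelfA*/+ list had a median score of 2.35 below 300 bp and 2.43 from 300 bp on.

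The same limits applied to other arms gave the following splits, set side by side without a test. The NelfA*/+ share of differential regions was 92.6% on the 2L arm, 93.3% on the 3R arm and 94.7% on the X arm, and 83.9% over the whole series. The density of regions higher in NelfA*/+ flies was 40.1 per Mb on the 3L arm, 34.5 on 2L, 28.1 on 3R and 18.4 on X. Common regions had the same order, with 68.9, 57.5, 44.5 and 22.9 per Mb. Per common region the order was the opposite, with 0.582 NelfA*/+ regions on the 3L arm, 0.600 on 2L, 0.632 on 3R and 0.805 on X. Control-higher regions numbered 3.84 per Mb on the 3L arm and 2.74, 2.03 and 1.03 on the others in that order. Outside the limits on 3L, the last 5 Mb towards the centromere held 1182 regions higher in NelfA*/+ flies and 248 higher in control siblings, a share of 82.7%. The first 1 Mb held 16 and 1. Just inside the centromeric limit, the nearest region higher in NelfA*/+ flies lay 22 kb away with a score of 2.15, and the nearest outside lay 2.78 kb away with a score of 3.06. At the telomeric limit these were 99.3 kb and 2.20 inside and 74.5 kb and 2.05 outside.

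Along the arm, regions higher in NelfA*/+ flies outnumbered those higher in control siblings in all 22 full windows of 1 Mb. The NelfA*/+ list had 16 to 70 regions in a window with a median of 36.5, the control list 1 to 8 with a median of 4, and the common list 19 to 151 with a median of 62.5. The window that starts at 20 Mb had the most regions higher in NelfA*/+ flies (70) and the most common regions (151), and the window at 10 Mb had the fewest of both (16 and 19). That sparse window also had the fewest starts of protein-coding genes, 61, against a median of 124. Over the 22 windows the counts of the NelfA*/+ list and the common list had a Spearman rho of 0.960. For the control list and the common list rho was 0.356. Windows share gene content and base composition, and both lists come from the same libraries, so these values are a description only. The NelfA*/+ share ran from 82.1% in the window at 13 Mb to 97.1% in the window at 8 Mb. In the last 0.110 Mb before the centromeric limit, where 49.3% of bases lay in annotated transposable elements (TEs), it was 76.2%, with 16 regions against 5.

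**Figure D1:**
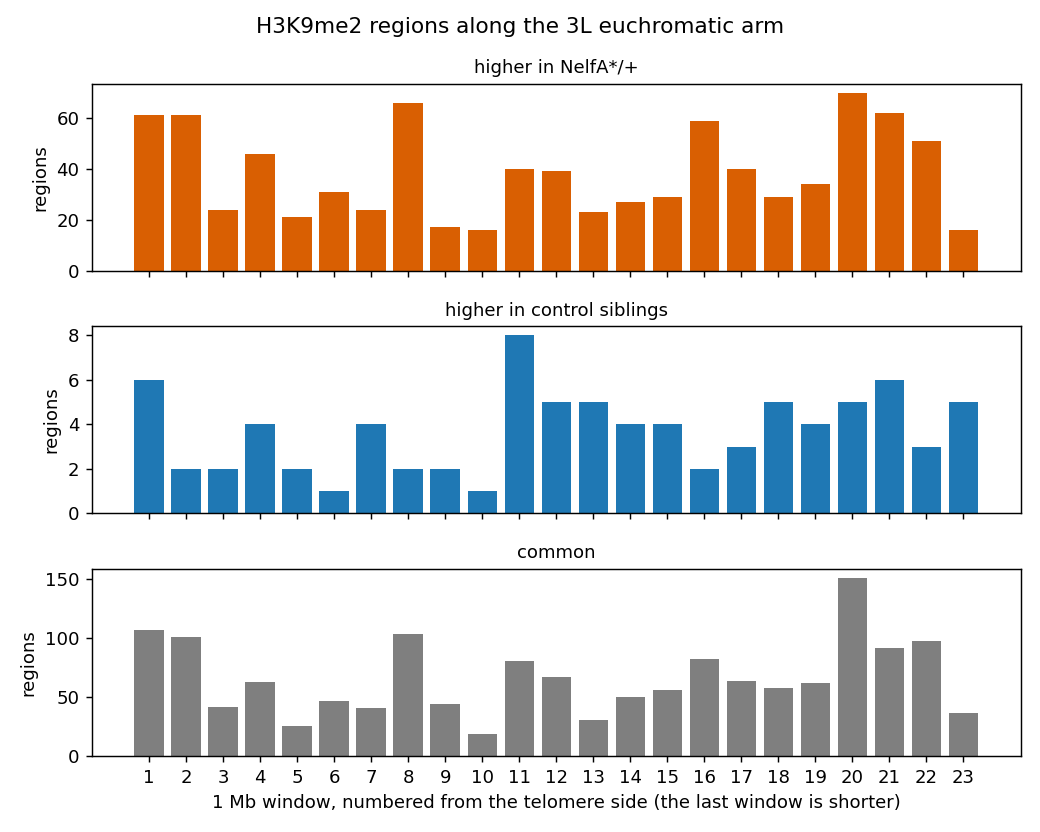
Number of H3K9me2 regions (y axes, which differ in scale) in each 1 Mb window of the 3L arm (x axis, numbered so that window 8 starts at 8 Mb), for regions higher in NelfA*/+ flies, higher in control siblings and common. Bars are counts of calls with no error; the NelfA*/+ and common panels both peak in window 20, at 70 and 151 regions, and both are lowest, among full windows, in window 10.

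Many differential regions bordered or overlapped common ones. Of the 886 regions higher in NelfA*/+ flies, 407 (45.9%) shared at least 1 bp with a common region and 68 lay wholly inside common regions. Within 1 kb of a common region were 73.6%. In all, 77 (8.69%) were more than 10 kb from any common region, the farthest at 132 kb. For control-higher regions, 35 of 85 (41.2%) overlapped a common region and 6 (7.06%) were more than 10 kb away. The median score was 2.06 for NelfA*/+ regions that overlapped a common region and 2.75 for those that did not. From the other side, 425 common regions (27.9%) touched a region higher in NelfA*/+ flies, 38 (2.50%) one higher in control siblings, 6 touched both and 1066 (70.0%) touched neither. The isolated regions with the highest scores, after the GATA repeat and Eip75B, lay in an exon of CG32354 (6.51, 23.9 kb from a common region), near CR42838 (5.83, 21.8 kb) and in exonic sequence where the genes Cralbp, PGRP-LD and Pmi overlap (5.56, 33.7 kb). Cralbp encodes a retinal-binding protein and PGRP-LD belongs to the peptidoglycan recognition family.

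Regions lay in coding sequence far more often than the arm's bases do. The midpoint was in coding sequence for 560 regions higher in NelfA*/+ flies (63.2%), for 38 higher in control siblings (44.7%) and for 856 common regions (56.2%), while coding sequence made up 18.9% of the arm. With each midpoint assigned in the order promoter (within 1 kb of a transcript start), exon, intron and intergenic, the NelfA*/+ list had 34.0% promoter, 40.9% exon, 8.13% intron and 17.0% intergenic midpoints. The arm's bases divided into 26.5%, 16.2%, 34.4% and 22.8%. The control list had 27.1%, 31.8%, 16.5% and 24.7%, and the common list 30.2%, 36.9%, 9.98% and 22.9%. The NelfA*/+ share of differential regions was 92.9% in promoters, 93.1% in exons, 83.7% in introns and 87.8% between genes.

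**Figure D2:**
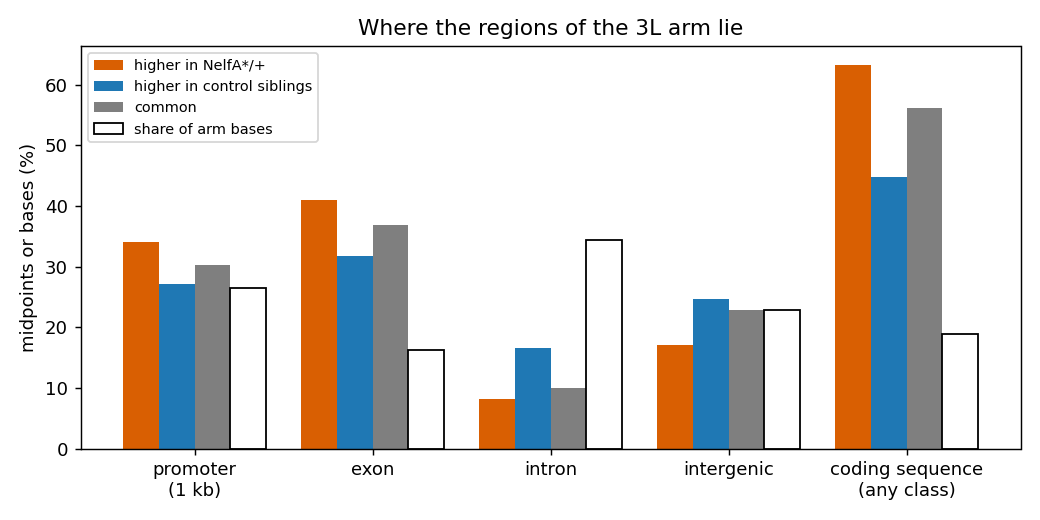
Share (y axis, %) of midpoints of regions higher in NelfA*/+ flies, higher in control siblings and common that fall in each feature (x axis), beside the share of the arm's bases (white). The first 4 groups are exclusive and the last counts coding sequence in any of them; in coding sequence the 3 lists reach 63.2%, 44.7% and 56.2% against 18.9% of bases, and all lie below the 34.4% of bases that are intronic.

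Start sites themselves were not where the NelfA*/+ regions were densest. Regions with a midpoint under 250 bp from a transcript start were 8.47% of the NelfA*/+ list, 1.02 times the share of arm bases there. The ratio was 1.54 from 250 to under 500 bp, 1.32 from 500 to under 1000 bp, 1.22 from 1000 to under 2000 bp and 0.712 beyond 5000 bp. For control-higher regions it was 0.566 under 250 bp, with 4 regions, and 1.10 beyond 5000 bp. The median distance to a start was 1782 bp in the NelfA*/+ list, 2604 bp in the control list, 2256 bp in the common list and 2662 bp over positions of the arm.

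The lists also differed in base composition. The median GC content was 53.8% in regions higher in NelfA*/+ flies, 47.2% in control-higher regions and 52.3% in common regions, where the arm had 42.1%. When the 971 differential regions were divided into 5 classes of nearly equal size by GC content, the NelfA*/+ share was 75%, 91.2%, 93.8%, 97.4% and 99.0% from the lowest to the highest. The lowest class held 49 of the 85 control-higher regions. The GC difference was present inside and outside genes' coding parts. For coding midpoints the median was 56.2% in the NelfA*/+ list and 48.7% in the control list, and for other midpoints 50.0% and 45.5%. Base composition thus moved with the direction of the calls, and its part in the split was not tested.

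Counted against the 110551 adjoining 200 bp windows of the arm, regions higher in NelfA*/+ flies became steadily denser with GC content. They numbered 0.382 per 1000 windows under 40% GC, 2.0 from 40% to under 45%, 7.84 from 45%, 19.4 from 50%, 29.7 from 55% and 74.8 at 60% or more. Common regions rose from 0.742 to 68.4 over the same classes. Control-higher regions stayed between 0.225 and 1.42 and were densest at 50% to under 55%. Split by coding state, this peak was found only outside coding sequence (1.23). Within coding sequence they were densest under 40% GC (3.04, from 4 regions) and fell to 0.835 from 55% and 0.893 at 60% or more. In coding windows of 60% GC or more, the NelfA*/+ list (79.0 per 1000) was denser than the common list (69.2), and in the other windows of that class the order was turned (34.5 and 60.3), the former from 8 regions.

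**Figure D3:**
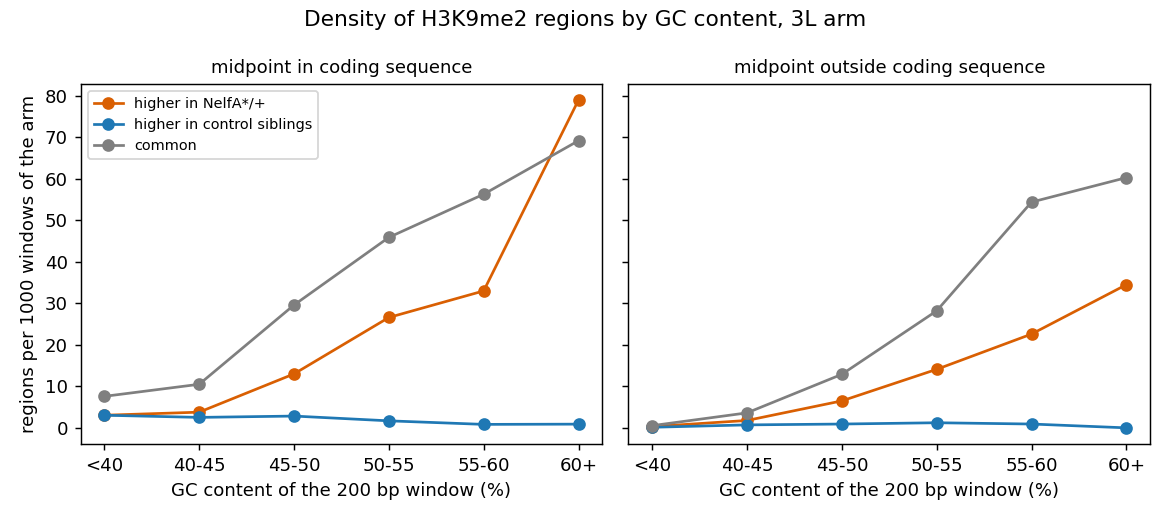
Regions per 1000 windows of 200 bp (y axis) by GC content of the window (x axis, %), for midpoints in coding sequence (left) and outside it (right); each line is a list. At 60% GC or more in coding sequence the list higher in NelfA*/+ flies reaches 79.0 and the common list 69.2, while control-higher regions stay at 3.04 or less in every class.

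Short sequence motifs differed between the lists in both directions. CAGCAG, on either strand, was found in 28.9% of 200 bp windows centred on regions higher in NelfA*/+ flies, in 9.41% for control-higher regions, in 23.8% for common regions and in 16.2% of all 200 bp windows of the arm. Among coding windows these shares were 33.6%, 10.5%, 28.2% and 28.9%, so the NelfA*/+ regions were closer to coding sequence in general than to the whole arm. GTGGTG, added after the sequences were seen, was in 20.2%, 14.1%, 19.1% and 9.41%, but among coding windows the order of the differential lists turned, with 25.4%, 28.9%, 24.8% and 19.1%. AATAAT was in 7.22%, 14.1%, 6.63% and 24.3%. GAGAG, the core bound by the GAGA factor encoded by Trl, was in 23.5%, 34.1%, 25.8% and 21.2%, and CACACA in 12.3%, 14.1%, 11.3% and 15.4%. For CACACA the order of the differential lists depended on coding state. Its shares were 7.50%, 13.2%, 8.29% and 7.67% among coding windows and 20.6%, 14.9%, 15.1% and 17.2% among the others. CACACA and GAGAG can each occur in longer repeats, and GTGGTG overlaps no CAGCAG match by more than 1 base. GATAGATA, also added later, was in 4 of the 886 NelfA*/+ windows (0.451%), in 0.687% of all windows and in no control-higher window, so the GATA repeat shown above is an isolated case within its list. A match is a description, and with 85 control-higher regions each share of that list rests on few of them.

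Genes were counted as touched when a region overlapped the gene or the 1 kb upstream of it. Of 2599 protein-coding genes of the arm, 492 (18.9%) were touched by a region higher in NelfA*/+ flies, 60 (2.31%) by one higher in control siblings and 608 (23.4%) by a common region. A NelfA*/+ region without a common one was found in 133 genes, and 38 genes had regions of both directions. Longer genes were touched more often. The share with a NelfA*/+ region was 14.6% under 2 kb, 16.0% from 2 kb, 24.8% from 5 kb, 41.5% from 20 kb and 58.5% at 50 kb or more. Of the touched genes, 23 held 5 or more such regions.

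The gene with most sequence under NelfA*/+ regions was sls (sallimus, FBgn0086906, chr3L:2039681-2115611, minus strand), which encodes the titin-like giant protein of the muscle sarcomere. It held 30 regions higher in NelfA*/+ flies, 1 higher in control siblings and 48 common regions, covering 11088, 290 and 34447 bases. Of the 30, 28 lay over an exon and 25 overlapped a common region, with scores of 1.37 to 4.39. Exons made up 77.7% of the gene, and 16.9% of exonic bases lay under NelfA*/+ regions, 55.7% under common regions and 0.492% under the control-higher one. No region of any list lay between 45.3 and 52.8 kb from the 5′ end, although the annotation places exons there. The common regions in sls included the longest of the arm, 5041 bp. The neighbouring gene zormin, for another titin-related protein of the sarcomere, had 8 regions higher in NelfA*/+ flies, 0 higher in control siblings and 17 common ones.

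**Figure D4:**
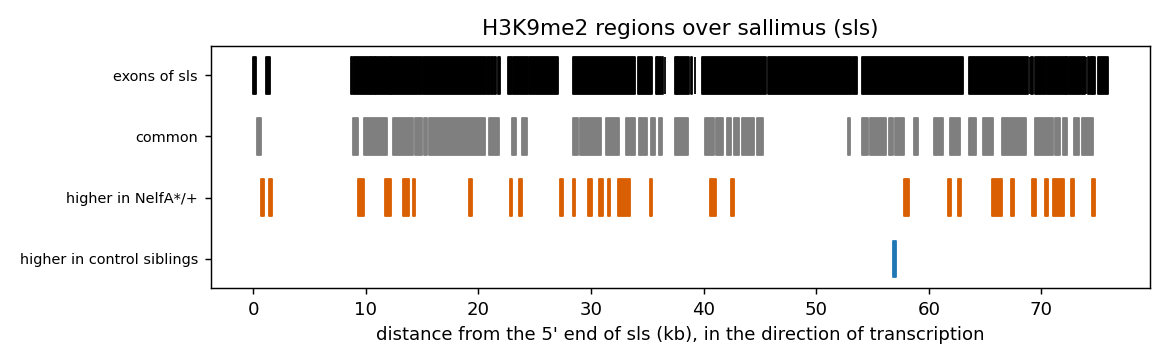
Exons of sls (any transcript) and the regions of each list over the gene, placed by distance from its 5′ end (x axis, kb); each block is a called region. The 30 NelfA*/+ blocks lie among 48 common blocks, with 1 control-higher block at 56.8 kb, no NelfA*/+ block from 42.7 to 57.8 kb and a gap in all lists from 45.3 to 52.8 kb.

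The other leading genes, named by the rule of most bases under NelfA*/+ regions, have several kinds of role and were not tested as a group. Rols, an adaptor of myoblast fusion, had 11 NelfA*/+ regions over 4505 bases against 2 control-higher regions over 436. LanA, the laminin alpha chain of basement membranes, had 8 against 0, which covered 22.9% of the gene with its upstream 1 kb. Pericardin, a collagen-like matrix protein of the heart (prc), had 5 against 2 and the largest covered share of these 15 genes, 30.8%. Lmpt, a LIM domain protein, had 5 against 1, Fhos, a formin that organises actin, 6 against 0, and Svil, a supervillin-family actin regulator, 5 against 1. Much longer genes ranked next to these. Ptp61F, a protein tyrosine phosphatase of 133 kb, had 13 against 2 and bbg, a PDZ domain protein of 123 kb, 11 against 2. Part of the Ptp61F count lay at other genes within its span. CG9173 held 4 of these NelfA*/+ regions (1449 of the 3943 bases), and CG9168 and FucTD 1 each. ImpE1, an ecdysone-inducible gene, and Adgf-A, an adenosine deaminase, had 6 against 0 each, as did CG32447, and CG43980 had 7 against 0. CG32373 had 5 against 0, and its span holds Ank2, which had 3 of these regions. A region was counted for every gene it overlapped, so counts of other genes can be shared in the same way.

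**Figure D5:**
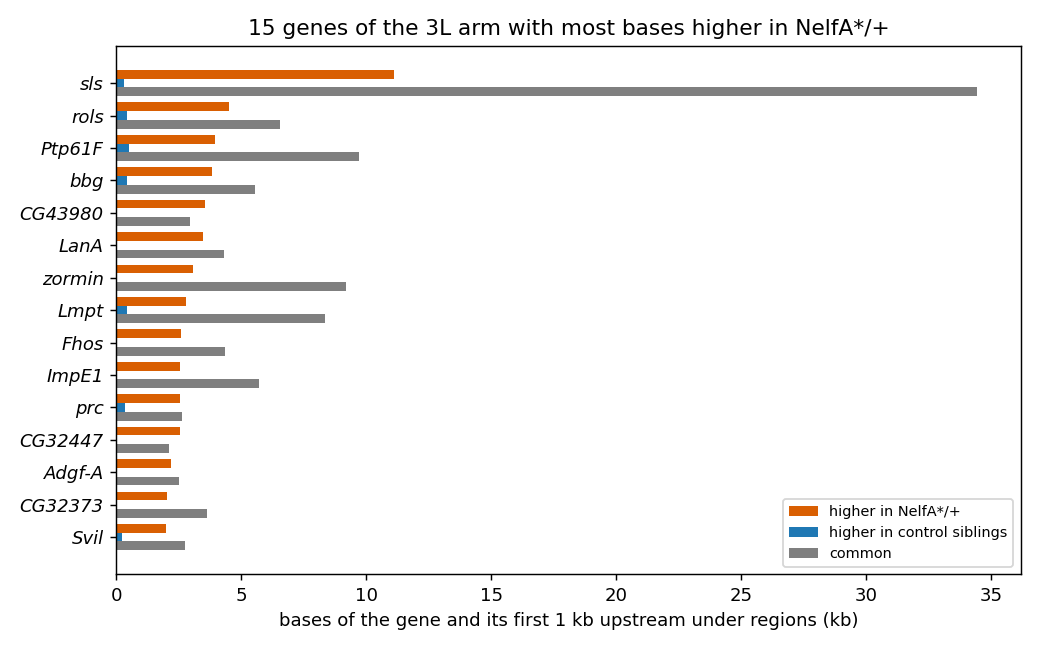
Bases (x axis, kb) under regions higher in NelfA*/+ flies, higher in control siblings and common, for the 15 genes with most bases in the first list (y axis), chosen on that value. sls leads with 11088 bases against 290, and every one of the 15 has more bases in the NelfA*/+ list than in the control list.

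Genes that led the control list had little sequence in it. Muc68Ca, a mucin, had 1 control-higher region of 860 bp, the longest of that list, 0 NelfA*/+ regions and 4 common ones. Hml, the clotting protein hemolectin, and atk, a leucine-rich repeat matrix protein, each had 2 control-higher and 2 NelfA*/+ regions, and mmm had 2 and 0. Muc68E had 1 control-higher region, and none of the 3 genes named Muc on the arm held a NelfA*/+ region. Their median length was 5.64 kb, a class in which 24.8% of coding genes had a NelfA*/+ region and 4.28% a control-higher one. With 3 genes these counts say little. The mucins and the gene families that follow (cuticular, ribosomal and chemoreceptor genes) were looked up after the leading genes were known. Of 35 Cpr genes, which encode structural proteins of the cuticle and had a median length of 0.868 kb, 13 (37.1%) were touched by NelfA*/+ regions, 1 by a control-higher region and 17 (48.6%) by common regions. Among all coding genes under 2 kb these shares were 14.6% for NelfA*/+ and 19.5% for common regions. Cpr76Bc had 2 NelfA*/+ regions over 1376 bases, among them 1 of the 5 longest of the arm (1078 bp), and also 1 control-higher region. Of 12 ribosomal protein genes none was touched by any list, and of 34 chemoreceptor genes (Gr, Or and Ir) 2 (5.88%) had a NelfA*/+ region and 9 (26.5%) a common one. Both families had median lengths under 2 kb, the class with 14.6% and 19.5%.

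Gene lists put together by hand, with earlier results of these data known, differed widely in how often they were touched. None of 10 heat-shock genes of the arm, among them Hsp22, Hsp23, Hsp26, Hsp27 and Hsp83, held a region of any list. Their distance to the nearest region higher in NelfA*/+ flies was 18.1 kb for Hsp83, 28.1 kb at the median and 103 kb for Hsc70-1. These genes were short, with a median of 1.88 kb, a length class in which 14.6% of coding genes were touched. Hsp67Bc, CG4456, Hsp22, Hsp26, Hsp67Ba, Hsp23 and Hsp27 lie together at chr3L:9371511-9385694, so the 10 genes are not 10 separate places. The median distance falls among the genes of this group, and a common region lay 7.23 kb from Hsp27. None of the 3 genes for NELF and pausing held a region: Nelf-E, which encodes another NELF subunit, lay 2.08 kb from a NelfA*/+ region, Trl 20.1 kb and CycT, the cyclin partner of the pause-release kinase, 70.4 kb. Their median length was 6.79 kb, a class with 24.8% of coding genes touched by NelfA*/+ regions, so a count of 0 among 3 genes says little. Of 15 listed genes for chromatin regulation and small RNA silencing, 0 held a differential region, where 18.9% of all coding genes had a NelfA*/+ one. Their median length was 5.00 kb, at the border of classes with 16.0% and 24.8% of genes touched. Common regions touched 2 of them, the piRNA pathway gene mael and JIL-1, a kinase of histone H3. Of the 3 oxidative stress genes, Trxr2, a thioredoxin reductase, had 2 NelfA*/+ regions and 1 common one, and Sod1 and Cat had none. Their median length was 1.79 kb, in the class with 14.6% touched, and 3 genes are too few for a share.

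The listed developmental and neuronal genes, chosen in the same way, were touched more often than coding genes as a whole. Of 32 listed developmental genes, most of them for transcription factors, 14 (43.8%) held regions higher in NelfA*/+ flies, 29 in all. Control-higher regions were in 2 of the 32 and common ones in 13. The related nuclear receptor genes knrl and kni had 4 and 3 NelfA*/+ regions, and those of kni covered 33.8% of the gene with its upstream 1 kb. The zinc finger gene klu had 3, as did bab1, and sens, a zinc finger gene of sensory organ precursors, had 2. The T-box genes Doc1, Doc2 and Doc3 lie next to each other and differed in direction: Doc1 had 2 NelfA*/+ regions, Doc3 had 1, and Doc2 had 2 control-higher regions and 0 NelfA*/+ ones. The repressor gene hry (hairy) had 1 of each. Of 27 genes for neuronal signalling and adhesion, 14 (51.9%) held NelfA*/+ regions, 26 in all. Common regions were in 13 of the 27, where 23.4% of all coding genes had one, so the frequent touching was not particular to NelfA*/+ regions. Shab, a voltage-gated potassium channel, and Tollo, a Toll family receptor, had 4 each, Pura and Ank2 3 each, and the rhodopsin gene Rh4 2. The immunoglobulin superfamily gene dpr10 had the list's only control-higher region. That region also touched CG6628, a gene within the dpr10 span, and both NelfA*/+ regions of Rh4 also touched CG13029 within its span. These neuronal genes had a median length of 36.3 kb, a length class with 41.5% of coding genes touched, and the developmental genes one of 11.2 kb, a class with 24.8%. Common regions touched 36.4% and 30.8% of coding genes in these classes.

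NelfA*/+ regions lay in groups. Joined at gaps under 10 kb they formed 330 clusters, 168 of them of a single region, while 54 clusters of 5 or more held 434 regions (49.0%). The largest, chr3L:2072873-2139916, held 27 regions over sls and zormin in 67.0 kb with 0 control-higher and 37 common regions. A cluster at chr3L:20190966-20224800 held 11 regions over 10 coding genes, obst-F and CG7290 among them. Another at chr3L:21686122-21719490 held 14 around CG32447, that at chr3L:16899958-16939699 held 12 from Lmpt to Cpr73D, and that at chr3L:8633094-8698182 held 15 over Zasp66, Arr2 and hry among others. Zasp66 encodes a protein of the muscle Z disc and Arr2 the arrestin of photoreceptors. The last 3 clusters held 1 control-higher region each. The longest NelfA*/+ regions were 1336 bp in Lmpt, 1225 bp at CG7290, 1139 bp in rols and 1124 bp in Tie, a receptor tyrosine kinase gene.

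Transposable elements accounted for few of the regions. Of regions higher in NelfA*/+ flies 59 (6.66%) overlapped an annotated TE copy, of control-higher regions 7 (8.24%) and of common regions 100 (6.57%). TE copies made up 4.03% of the arm's bases, a narrower measure than an overlap of at least 1 bp. Before 22 Mb the shares of regions were 5.13%, 3.90% and 4.18%. From 22 Mb on, nearer the centromere, they were 25.4%, 50.0% (only 4 control-higher regions with a TE) and 31.1%. TE copies made up 8.72% of bases from 22 to 23 Mb and 49.3% in the last 0.110 Mb. Of 532 TE copies on the arm, 46 (8.65%) were touched by a NelfA*/+ region, 7 (1.32%) by a control-higher one and 61 (11.5%) by a common one. Of 168 copies of at least 1 kb, 33 (19.6%) were touched by NelfA*/+ regions, and of 240 copies of INE-1, a short and old element, 4 (1.67%). Long families were not all touched, since none of 27 copies of roo, with a median length of 9093 bp, overlapped a NelfA*/+ region. Families with gypsy in their name had 5 of 12 copies touched by NelfA*/+ regions, 1 by a control-higher and 7 by common regions. Families named diver had 1 of 2. Among families of at least 5 copies, the highest shares were in the retrotransposons 17.6 and Rt1a (3 of 5 copies each), Rt1b (2 of 6), Cr1a (4 of 14) and 412 (3 of 12). Copies of a family share sequence, and how ChIP reads that match several copies were placed is not given in the sources used here.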

How the data were processed

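The authors aligned reads with STAR 2.5 to BDGP6, called H3K9me2 peaks with MACS2 2.1.1 in broad mode with 200 bp fragment extension, and derived differential regions with bdgdiff (gap 100 bp, minimum length 200 bp), a likelihood ratio between signal tracks without replicate variance; whether replicates were pooled is not given in the sources used here. The deposited score is a single number per region of unstated scale. The lists carry condition numbers, and each was tied to a genotype because its region count equals the one the study gives for that class. Depth is unknown. Signal tracks and separate input values were not used here. FastQC, Trim Galore and deepTools are also named in the submitters' processing notes.

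Members, gene lists and limits were chosen with earlier results of these data known. Genes, exons and TE copies came from the Ensembl annotation (release 115), which postdates the authors' one, and bases and soft-masking from the RefSeq copy of the assembly. Overlap meant at least 1 bp. In the gene lists, 4 genes were matched by an older symbol. Named by rule were the 10 highest scores of both differential lists, the 5 longest regions of each list, the 5 highest isolated NelfA*/+ regions, the 15 genes with most NelfA*/+ bases and 5 for each other list, the 5 largest clusters and the 5 leading TE families. No test was run, because regions are not replicates. The interval code was tested on simulated data, with 0 of 1000 overlaps wrong. Computations ran in Python 3.11.15 (pandas 2.3.3, numpy 2.4.6, scipy 1.17.1) and plots were drawn with matplotlib 3.10.9.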

Additional observations from a re-analysis of the deposited data

How the results depend on the processing

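Of 36 alternative values, 18 moved by more than a 95% counting interval or 1.5 times and 0 turned direction. The interval counts regions as if they were independent, so it only sorts the values and is no spread between replicates. Only the NelfA*/+ share of differential regions and the GC difference have a direction that could turn. The NelfA*/+ share of differential regions became 95.3% at a score of at least 3, 97.7% at a length of at least 400 bp, 93.1% by covered bases and 81.9% with regions under 10 kb apart merged. The NelfA*/+ count became 264, 208 and 330 with these score, length and merging choices, and the control-higher count 13 and 5 with the score and length choices. With at least 50% of a region shared, overlap with common regions was 21.0% for NelfA*/+ and 14.1% for control-higher regions. With a 500 bp promoter, 19.1% of NelfA*/+ midpoints were in promoters and 51.9% in exons. Regions with at least 50% soft-masked bases were 2.26% of the NelfA*/+ list, 4.71% of the control-higher list and 1.97% of the common list. Below 22 Mb the TE shares were 5.13%, 3.90% and 4.18% for NelfA*/+, control-higher and common regions. The difference of median GC content, 6.52 percentage points, was between 5.90 and 7.38 under its alternatives. The cause of these shifts was not tested. No paired analysis was possible because the lists hold no values per library, and for the same reason no replicate could be left out. With 85 control-higher regions, shares of that list are the least precise.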
